A study of Mus musculus with 4 samples.

Results

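The genes described here are 10 components of Hedgehog signaling and of the ciliary membrane, namely Smo, Ptch1, Gli1, Gli2, Gli3, Sufu, Gpr161, Arl13b, Inpp5e and Tulp3. They were taken by their symbols from a table of RNA levels in purified motile multicilia, which holds 12515 transcript rows under 10213 gene symbols. Of the 10 genes, 9 had a row and Gli1 had none, and the 9 genes took 10 rows because Smo had 2. The question behind the choice was how much RNA of primary-cilium signaling is held by preparations of motile multicilia.

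The RNA came from mEPCs, cultured ependymal cells that were prepared from newborn C57BL/6 mouse telencephalon (either sex) and driven to differentiate by serum withdrawal. Fmr-i1 cells received an siRNA against Fmr1 and Ctrl-i cells a control siRNA, each at 40 pmol and repeatedly until harvest at day 10. Each group had 2 libraries, one from Exp.1 and one from Exp.2, which the study calls independent experiments. The multicilia were collected together with the apical cell cortexes that carry them, so RNA of the ciliary shaft and of the cortex was measured together. From these RNA levels alone, fewer ciliated cells and less RNA per cell cannot be told apart. The paper counted multiciliated cells before and after day 10 and reports an unchanged percentage upon depletion. At the later count it reports more cells with degenerating multicilia.

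Values are FPKM, fragment numbers scaled by transcript length and by how many fragments the library mapped, and the read depth behind them is unknown. Where a group has a pair of values, the first is from Exp.1 and the second from Exp.2. Fmr1 itself was listed at 0 in both Fmr-i1 libraries, against 0.42 and 8.13 FPKM in Ctrl-i, so the control level differed widely between the experiments. It was 1 of 162 rows at 0 in both Fmr-i1 libraries, and 0 rows were at 0 in only 1 of these libraries. The sources used here do not give how these zeros arose, so they cannot be read as a complete loss of Fmr1 RNA. All 8 ependymal markers had a row, with summed levels of 1759 to 1875 FPKM in Fmr-i1, against 1472 to 1908 FPKM in Ctrl-i. All 8 astrocyte markers had a row as well, led by Gfap and Fabp7, with sums of 2630 to 3136 FPKM in Fmr-i1, against 2877 to 3765 FPKM in Ctrl-i. The 5 neuronal markers with a row summed to 75.6 to 92.38 FPKM in Fmr-i1, against 90.04 to 98.21 FPKM in Ctrl-i, and of 7 microglial, 5 endothelial and 5 fibroblast markers 0, 1 and 2 had a row, the last summing to at most 5.69 FPKM. Oligodendrocyte markers, 5 of 8 with a row, summed to 114.2 to 141.9 FPKM in Fmr-i1, against 100.3 to 106.6 FPKM in Ctrl-i. Transcripts of the mitochondrial genome, with 3 rows, took 23.5% to 28.8% of the summed FPKM in Fmr-i1 and 28.1% to 38.4% in Ctrl-i.

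In vertebrate cells, Hedgehog signals are read at the primary cilium. Without ligand, the receptor Ptch1 keeps Smo out of the cilium, and Gli proteins are cut to repressors with the help of cyclic AMP and protein kinase A. When ligand binds Ptch1, Smo enters the cilium, Gpr161 leaves it, and Gli proteins, released from Sufu, switch on their targets. The membrane on which this takes place is set up by Tulp3, Arl13b and Inpp5e, and motile cilia carry Arl13b as well.

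The rows of the table are single transcripts, and for some members the choice of transcript decides which protein end is meant. The sequences below show those ends, taken from the GRCm38 genome with the GENCODE M21 annotation and written 5′ to 3′ in the direction of the gene. For Smo, the 2 rows part at the end of exon 1, and capitals mark exon 2 in the spliced row and intron 1 in the row that keeps it, which runs over chr6:29736330-29736377 on the plus strand:
Smo spliced: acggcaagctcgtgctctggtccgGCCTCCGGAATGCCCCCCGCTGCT
Smo intron-retaining: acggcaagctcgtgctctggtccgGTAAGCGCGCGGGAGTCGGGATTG

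For Ptch1, the row of the table starts its open reading frame in exon 3, at chr13:63548079-63548126 on the minus strand, and encodes 1297 residues. The annotation also holds a transcript of 1434 residues, without a row, that starts in another first exon at chr13:63565473-63565520. For Gpr161, the row starts in exon 2 at chr1:165306222-165306269 on the plus strand and encodes 528 residues, whereas a transcript without a row starts upstream and encodes 545 residues. Capitals mark the first codon:
Ptch1 row: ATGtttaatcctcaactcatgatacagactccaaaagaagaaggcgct
Ptch1 without a row: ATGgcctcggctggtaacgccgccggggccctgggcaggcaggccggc
Gpr161 row: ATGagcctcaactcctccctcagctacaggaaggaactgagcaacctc
Gpr161 without a row: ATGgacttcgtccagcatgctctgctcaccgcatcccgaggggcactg

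For Inpp5e, the ends of the frames are shown, because the phosphatase is anchored to membranes by a lipid on a C-terminal CaaX box, which starts with a cysteine. The row, ending at chr2:26397842-26397889 on the minus strand, encodes 647 residues, and its last 4 codons, in capitals, begin with a cysteine codon. A transcript of 605 residues without a row ends otherwise:
Inpp5e row: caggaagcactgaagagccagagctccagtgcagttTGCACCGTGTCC
Inpp5e without a row: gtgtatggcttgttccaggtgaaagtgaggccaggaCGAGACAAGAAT

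The members spread over a wide range of levels, and most of their RNA was that of 3 genes. Averaged over the 4 libraries, Tulp3 was at 49.23 FPKM, Smo at 35.69 FPKM and Arl13b at 15.1 FPKM. These 3 genes held 80.4% to 86.7% of the summed FPKM of the members in Fmr-i1 and 84.3% to 86.5% in Ctrl-i, and they alone lay above the median gene of the library, which was at 10.34 and 10.83 FPKM in Fmr-i1, against 9.51 and 8.78 FPKM in Ctrl-i. Below the median followed Gli3 at 6.76 FPKM, Gpr161 at 3.85 FPKM, Inpp5e at 2.79 FPKM, Sufu at 2.40 FPKM, Ptch1 at 2.2 FPKM and Gli2 at 0.79 FPKM. In this order the ranges over libraries separated Smo from Arl13b, Arl13b from Gli3, and Ptch1 from Gli2. All other neighbours had ranges that overlapped, although Tulp3 was above Smo, and Gli3 above Gpr161 and Inpp5e, within every library. The lowest Gli3 value, 5.67 FPKM, was above the highest of Sufu, 2.83 FPKM, and of Ptch1, 2.93 FPKM. Among all gene sums of a library, Smo lay between the percentiles 77.0 and 84.5, Arl13b between 55.3 and 66.9, and Gli2, the lowest member, between 2.1 and 6.5. The medians and percentiles are over the 10213 gene symbols with a row. Genes without a row do not enter them, and how rows were chosen is not given.

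**Figure D1:**
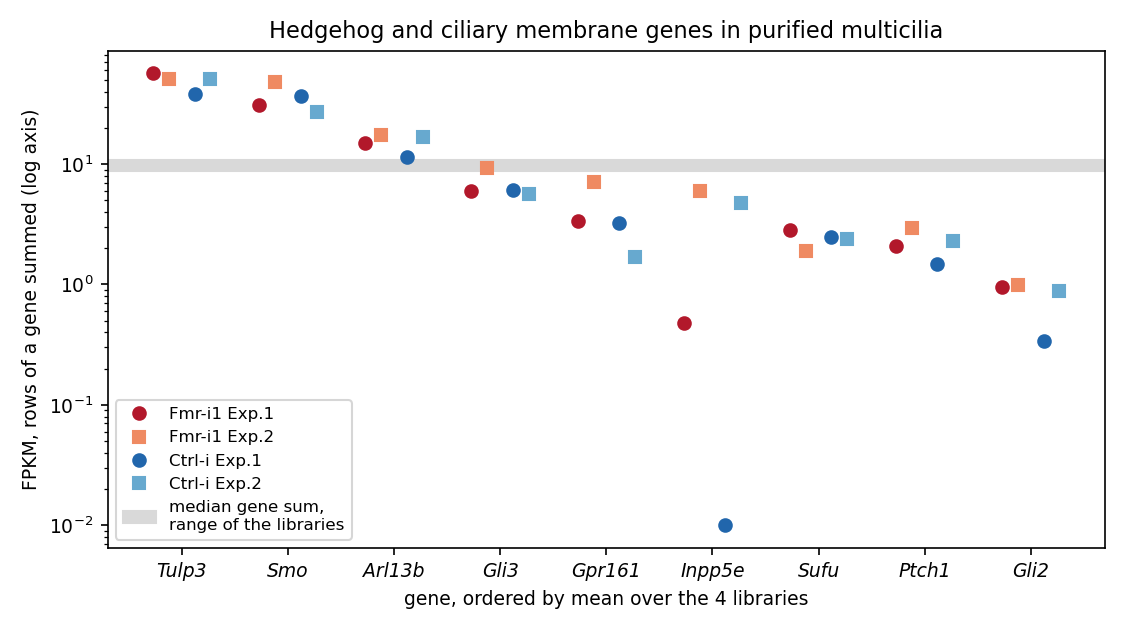
FPKM of each member (rows of a gene summed, log axis) in the 2 Fmr-i1 and the 2 Ctrl-i libraries, circles for Exp.1 and squares for Exp.2, with genes ordered by their mean. The grey band is the range of the median gene sum of the libraries. Tulp3, Smo and Arl13b sit above it in every library, and the Exp.1 values of Inpp5e, 0.48 FPKM with Fmr-i1 and 0.01 FPKM with Ctrl-i, fall far below those of Exp.2.

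Together the members made up a small part of the RNA. Their summed level was 118.2 and 144.1 FPKM in Fmr-i1, against 100.4 and 112.6 FPKM in Ctrl-i. This was 0.0210% and 0.0268% of all FPKM in Fmr-i1, against 0.0172% and 0.0191% in Ctrl-i. By this share, both Fmr-i1 libraries were above both Ctrl-i libraries, as was the sum of the 5 oligodendrocyte markers, at 114.2 and 141.9 FPKM in Fmr-i1, against 100.3 and 106.6 FPKM in Ctrl-i. Lmnb1, which encodes a protein of the nuclear lamina, had 9.2 and 11.91 FPKM in Fmr-i1, against 6.67 and 4.16 FPKM in Ctrl-i, and the nuclear RNA Malat1 had 68.37 and 207.55 FPKM in Fmr-i1, against 35.49 and 97.3 FPKM in Ctrl-i. For Malat1 the groups overlapped. Gapdh, whose protein served the paper as a cytosolic marker, had 7.41 and 11.65 FPKM in Fmr-i1, against 11.84 and 17.45 FPKM in Ctrl-i. Its level was thus lower in Fmr-i1 in both experiments. Lmnb1, Malat1 and Gapdh were named after their values were seen. The part of oligodendrocyte, nuclear and cytosolic RNA in the result was not tested. With the 3 mitochondrially encoded rows left out of the total, the shares were 0.0294% and 0.0350% in Fmr-i1, against 0.0239% and 0.0310% in Ctrl-i. By these shares the groups overlapped. The 20 genes of the motile axoneme that were listed for comparison, such as Rsph1 and Rsph9 of the radial spokes, all had a row and summed to 909.6 and 844.5 FPKM in Fmr-i1, against 670.9 and 906.7 FPKM in Ctrl-i. The median axonemal gene stood at 27.2 and 25.84 FPKM in Fmr-i1, against 17.08 and 23.34 FPKM in Ctrl-i, whereas the median member stood at 3.36 and 7.13 FPKM in Fmr-i1, against 3.25 and 4.73 FPKM in Ctrl-i. Tulp3 and Smo were thus at levels above the median axonemal gene in every library.

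**Figure D2:**
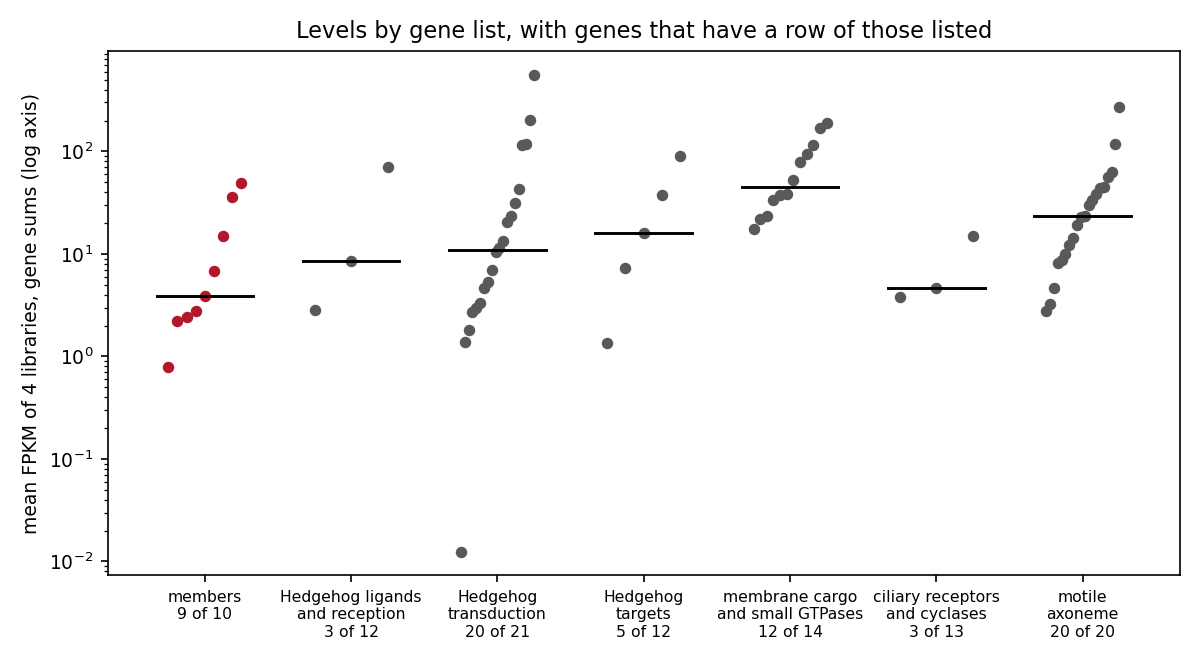
Mean FPKM over the 4 libraries (log axis) of each gene in 7 lists, with 1 point a gene, ordered by level within a list, and a bar at the median. Under each list stands the number of its genes with a row. The members, in red, span 0.79 to 49.23 FPKM, and the motile axoneme has all 20 of its genes in the table.

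Among the members that receive the signal, the effector was far more abundant than the receptor. Smo, the seven-pass membrane protein that passes the signal on, had 30.97 and 47.82 FPKM in Fmr-i1, against 36.95 and 27.03 FPKM in Ctrl-i. The Fmr-i1 value was thus below the Ctrl-i value in Exp.1, with a ratio of 0.838, and above it in Exp.2, with a ratio of 1.77, and the means were 39.39 ± 11.9 FPKM in Fmr-i1, against 31.99 ± 7.01 FPKM in Ctrl-i (SD, n = 2 each). Ptch1, the ligand receptor that holds Smo inactive and is itself a Hedgehog target, had 2.09 and 2.93 FPKM in Fmr-i1, against 1.48 and 2.29 FPKM in Ctrl-i. Its level was higher in Fmr-i1 in both experiments, but the groups overlapped. The level of Smo was 14.8 and 16.3 times that of Ptch1 in Fmr-i1 and 25.0 and 11.8 times in Ctrl-i. Of the 10 annotated Ptch1 transcripts only the one shown above had a row, so RNA of the other Ptch1 transcripts was not analysed here.

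Both annotated Smo transcripts had a row. The protein-coding transcript ENSMUST00000001812, with 12 exons over chr6:29735694-29761365, had 27.82 and 46.2 FPKM in Fmr-i1, against 35.02 and 25.03 FPKM in Ctrl-i. The intron-retaining transcript ENSMUST00000201515, a single exon of 2502 bases at chr6:29735503-29738004 of which 1651 bases lie in the 17116 bases of intron 1, had 3.15 and 1.62 FPKM in Fmr-i1, against 1.93 and 2.00 FPKM in Ctrl-i. It made up 10.2% and 3.39% of Smo in Fmr-i1, against 5.22% and 7.40% in Ctrl-i. The highest and the lowest of these shares were both from Fmr-i1 libraries, and in every library most of the estimated Smo RNA was that of the coding transcript.

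The genes around this pair were thinly represented. Of 12 ligands, ligand-processing factors and co-receptors listed, 3 had a row, and the ligands Shh, Ihh and Dhh had none, nor did Hhip and Cdon. Gas1, a lipid-anchored co-receptor for Hedgehog ligands, had 63.62 and 107.02 FPKM in Fmr-i1, against 71.93 and 40.96 FPKM in Ctrl-i. Boc, a further co-receptor, had 9.88 and 11.62 FPKM in Fmr-i1, against 5.76 and 6.87 FPKM in Ctrl-i. Gas1 was thus at a higher level than any of the members in 3 libraries and below Tulp3 in Ctrl-i Exp.2. The third gene was Lrp2, an endocytic receptor. No row of the table is at 0 in a Ctrl-i library, and the sources used here do not give how its rows were chosen, so the lack of a row cannot be read as a lack of RNA.

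Gpr161 is an orphan receptor of the primary cilium that raises cyclic AMP and so restrains the pathway. Its level was 3.36 and 7.13 FPKM in Fmr-i1, against 3.25 and 1.68 FPKM in Ctrl-i. The means were 5.25 ± 2.67 FPKM in Fmr-i1, against 2.46 ± 1.11 FPKM in Ctrl-i (SD, n = 2 each). The Fmr-i1 values both lay above the Ctrl-i values, but in Exp.1 the ratio was 1.03 and in Exp.2 it was 4.24, so nearly all of the difference came from Exp.2. Of all gene sums, 26.7% had both Fmr-i1 values above both Ctrl-i values, and of the 9 members 2 did, Gpr161 and Gli2.

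Other receptors and cyclases known from primary cilia were mostly without a row, 10 of 13, among them Adcy3, Sstr3 and Mchr1. Those with a row were led by Pkd2, a cation channel, at 10.63 and 17.12 FPKM in Fmr-i1, against 15.38 and 16.63 FPKM in Ctrl-i, and by Adcy6, an adenylyl cyclase, at 4.87 and 5.0 FPKM in Fmr-i1, against 6.36 and 2.46 FPKM in Ctrl-i. Pkd1 was the third.

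Tulp3, which carries receptors such as Gpr161 into the cilium by linking them to the intraflagellar transport machinery, was the most abundant member on average. Its row (chr6:128321161-128355851, minus strand, 11 exons) had 56.7 and 50.72 FPKM in Fmr-i1, against 38.34 and 51.15 FPKM in Ctrl-i. The means were 53.71 ± 4.23 FPKM in Fmr-i1, against 44.75 ± 9.06 FPKM in Ctrl-i (SD, n = 2 each). The lowest value was that of Ctrl-i Exp.1, and the other 3 libraries lay within 50.72 to 56.7 FPKM. Its position among all gene sums of a library ran between the percentiles 85.2 and 87.3 in Fmr-i1 and 81.5 and 87.5 in Ctrl-i. Of the other tubby family genes, Tulp4 had 19.35 and 18.64 FPKM in Fmr-i1, against 19.53 and 8.31 FPKM in Ctrl-i, and Tub had 2.09 and 1.41 FPKM in Fmr-i1, against 1.86 and 2.30 FPKM in Ctrl-i. Tulp1 and Tulp2 had no row.

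Arl13b, a small GTPase of the ciliary membrane that acts as exchange factor for Arl3 and is encoded at chr16:62793685-62847040 on the minus strand, had 14.83 and 17.32 FPKM in Fmr-i1, against 11.48 and 16.77 FPKM in Ctrl-i. Like Tulp3 it was lowest in Ctrl-i Exp.1, and in Exp.2 the ratio of Fmr-i1 to Ctrl-i was 1.03. The factors with which it works were well represented, with 12 of 14 listed genes for lipidated cargo and small GTPases having a row. The 2 most abundant were Arl2bp, a binding partner of Arl2 and Arl3, at 218.64 and 205.9 FPKM in Fmr-i1, against 158.01 and 178.46 FPKM in Ctrl-i, and Arl3, which releases lipidated cargo in the cilium, at 170.61 and 187.6 FPKM in Fmr-i1, against 156.01 and 164.36 FPKM in Ctrl-i. For both, the Fmr-i1 libraries were above the Ctrl-i libraries, as in 26.7% of all gene sums.

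Inpp5e, the phosphatase that keeps the ciliary membrane low in the phosphoinositide bound by Tulp3, varied more by experiment than by siRNA. It had 0.48 and 5.94 FPKM in Fmr-i1, against 0.01 and 4.73 FPKM in Ctrl-i. Both Exp.1 libraries were low and both Exp.2 libraries were higher, by 12.4 times in Fmr-i1 and 473 times in Ctrl-i, the second ratio resting on a value at the smallest step of the table. The Inpp5e transcript with a row is 1 of 7 in the annotation, and it shares exonic sequence with Pmpca on the other strand. Pmpca had 36.21 and 29.61 FPKM in Fmr-i1, against 26.73 and 30.58 FPKM in Ctrl-i, and did not show the split by experiment. The sources used here do not give whether the counting used the strand, so reads of these genes may not have been told apart. Of the other phosphoinositide enzymes listed, 3 of 4 had a row, led by Inpp5b at 9.29 and 7.98 FPKM in Fmr-i1, against 3.32 and 10.61 FPKM in Ctrl-i, and by Pik3c2a at 6.10 and 5.67 FPKM in Fmr-i1, against 4.72 and 2.03 FPKM in Ctrl-i.

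Of the Gli genes with a row, Gli3 had the higher level. Gli3, the main source of Gli repressor (chr13:15463980-15730026, plus strand, 15 exons), had 6.02 and 9.32 FPKM in Fmr-i1, against 6.04 and 5.67 FPKM in Ctrl-i, with 3 libraries close together and Fmr-i1 Exp.2 above them. Gli2, the main activator (chr1:118834132-119053619, minus strand, 14 exons), had 0.95 and 0.99 FPKM in Fmr-i1, against 0.34 and 0.89 FPKM in Ctrl-i. The level of Gli3 was 6.34 and 9.41 times that of Gli2 in Fmr-i1 and 17.8 and 6.37 times in Ctrl-i. The Gli3 transcript was thus more abundant in every library. Each gene had 1 row, of 4 annotated transcripts for Gli3 and 9 for Gli2, so RNA of their other transcripts was not analysed here. Gli1, a target and amplifier of the pathway, is annotated with 5 transcripts at chr10:127329882-127341974 and had no row. Sufu, which holds Gli proteins back (chr19:46396896-46488804, plus strand, 12 exons), had 2.83 and 1.89 FPKM in Fmr-i1, against 2.47 and 2.40 FPKM in Ctrl-i, and was the member with the lowest spread between the Ctrl-i libraries.

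Of 21 further genes of signal transduction, 20 had a row and only Mosmo had none. The 2 most abundant were Gnas, the stimulatory G protein subunit, at 568.78 and 700.68 FPKM in Fmr-i1, against 534.84 and 439.86 FPKM in Ctrl-i, and the kinase gene Csnk1a1, at 213.36 and 189.32 FPKM in Fmr-i1, against 187.3 and 210.73 FPKM in Ctrl-i. Both encode proteins that serve many pathways. Kif7, the kinesin that organizes the tip of the primary cilium for Gli proteins, was at 0.01 and 0.02 FPKM in Fmr-i1, against 0.01 and 0.01 FPKM in Ctrl-i, the lowest level in that list. Kif7 is named after its value was seen.

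Of 12 listed target genes other than Ptch1 and Gli1, 5 had a row, and Hhip, Foxf1 and Nkx2-2 were among those without one. Ccnd2 had 88.75 and 142.98 FPKM in Fmr-i1, against 72.74 and 59.29 FPKM in Ctrl-i, and Ccnd1 had 47.86 and 56.82 FPKM in Fmr-i1, against 26.41 and 20.61 FPKM in Ctrl-i. For both cyclins both Fmr-i1 values lay above both Ctrl-i values, as in 26.7% of all gene sums. Neither passed the test below (limma, log2 difference 0.77 and adjusted p = 0.915 for Ccnd2, 1.13 and adjusted p = 0.854 for Ccnd1). Both are also regulated by other growth signals.

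Across the members, no difference between Fmr-i1 and Ctrl-i passed the test. Fmr-i1 was compared with Ctrl-i by limma on log2(FPKM + 1), blocked by experiment, and p-values were adjusted over the whole table by the Benjamini-Hochberg procedure. Of 9804 gene sums with a mean of at least 1 FPKM, 0% passed an adjusted p of 0.05, and of the 8 members among them 0 passed. At an unadjusted p under 0.05 there were 519 of the 9804 gene sums and 0 of the 8 members. Gli2 was below the minimum mean and entered only the fit without that filter, with a log2 difference of 0.31 (limma, adjusted p = 0.931). Over single rows the outcome was the same, with 0% of 11898 rows passing, 598 at an unadjusted p under 0.05, and 0 of the 9 member rows in either count.

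With 1 FPKM added, Gpr161 had the largest fitted difference of the members, a log2 difference of 0.82 (SE 0.56, 95% interval -0.47 to 2.1, adjusted p = 0.915 by limma). Inpp5e followed with 0.41 (SE 0.51, interval -0.76 to 1.58), and Gli3 with 0.31 (SE 0.46, interval -0.75 to 1.38). With 0.1 FPKM added, Inpp5e was ahead, at 1.36 against 1.03 for Gpr161. It was also ahead in fits without the block that left out Fmr-i1 Exp.1 (1.53 against 1.27) or Ctrl-i Exp.2 (1.67 against 0.49). The others were Ptch1 at 0.29 (interval -0.87 to 1.44), Smo at 0.28 (interval -0.60 to 1.15), Tulp3 at 0.27 (interval -0.49 to 1.03), Arl13b at 0.19 (interval -0.70 to 1.09) and Sufu at -0.05 (interval -1.20 to 1.11). Every interval held 0 and also reached beyond 1, a doubling, so these libraries leave differences of that size undecided. The blocked fit leaves 1 residual degree of freedom per gene, of 8.03 in total after limma draws on the other genes. The SEs and intervals thus rest largely on the spread of other genes, not on that of the gene itself. On this scale the difference of a gene at a low level is understated.

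Of the 8 tested members, 7 had a positive fitted difference and Sufu a negative one, and Arl13b turned to -0.01 when each library was scaled to its median. The median of the members was 0.28, beside 0.16 over all gene sums tested, so most of these had a positive fitted difference too. In Exp.1, 7 of the 9 members and 54.2% of all gene sums were higher in Fmr-i1. In Exp.2 these were 7 of the 9 members and 64.5% of all gene sums. After scaling by the library median, the median fitted difference was 0.10 for the members and -0.03 for all gene sums. By direction alone, 5 of the 9 members were higher in Fmr-i1 in both experiments, namely Ptch1, Gpr161, Gli2, Inpp5e and Arl13b, beside 35.1% of all gene sums. Of the members 0 were lower in both, beside 16.1% of all gene sums.

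None of the other listed genes passed the test either. A positive fitted difference was found in 14 of 19 tested genes of signal transduction (median 0.09), 9 of 12 of lipidated cargo and small GTPases (0.21), 13 of 20 of the motile axoneme (0.19) and 4 of 5 target genes (0.59). It was also found in 3 of 3 co-receptor genes (0.59), 3 of 3 phosphoinositide enzymes (0.72), 2 of 3 ciliary receptors and cyclases (0.23) and 1 of 2 tubby family genes (0.18). These medians stand beside the 0.16 of all gene sums and take in few genes in most lists. As that median is positive, a majority of positive differences is also found over all gene sums.

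The libraries of a group also differed between the experiments. In each of the 8 tested members, at least 1 group differed between Exp.2 and Exp.1 by more than the fitted difference between Fmr-i1 and Ctrl-i. The larger of 2 gaps between single libraries was here set against a difference averaged over the experiments, which favours this outcome. Its share among all gene sums was not counted, so it cannot be read as particular to the members. For Smo, Gli3 and Gpr161 the level was lower in Exp.2 than in Exp.1 in Ctrl-i and higher in Exp.2 in Fmr-i1, a pattern seen in 33.3% of all gene sums and in 3 of the 9 members. For these genes the ratio of Fmr-i1 to Ctrl-i in Exp.2 was 1.77, 1.64 and 4.24, beside 0.838, 0.997 and 1.03 in Exp.1. Among the astrocyte markers, Fabp7, also expressed by radial glia, was ordered likewise, at 437.6 and 1017.16 FPKM in Fmr-i1, against 601.95 and 372.4 FPKM in Ctrl-i. So was Gfap, by less in Fmr-i1, at 1330.69 and 1370.47 FPKM in Fmr-i1, against 2101.33 and 1439.69 FPKM in Ctrl-i. Slc1a2 was ordered likewise too, whereas Aldoc, Aqp4, Slc1a3, Sox9 and Aldh1l1 were lower in Exp.2 than in Exp.1 in Fmr-i1. Of the 8 astrocyte markers, 6 had a negative fitted difference. The part of glial RNA in the levels of Smo, Gli3 and Gpr161 was not tested.

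**Figure D3:**
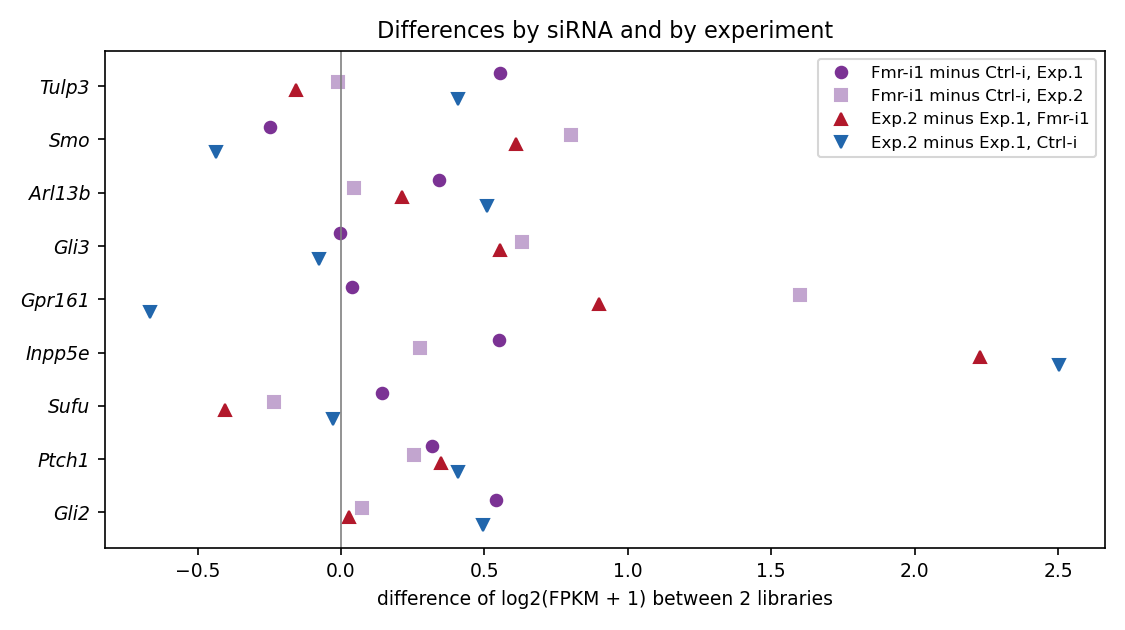
Difference of log2(FPKM + 1) between pairs of libraries for each member, between siRNAs within an experiment (purple) and between experiments within a group (red for Fmr-i1, blue for Ctrl-i). Gpr161 differs by 0.04 between siRNAs in Exp.1 and by 1.60 in Exp.2, and Inpp5e differs by over 2 between experiments in both groups.

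Compared by their pattern over the 4 libraries, the 3 most abundant members had near neighbours among genes of other kinds. Nearness was the Euclidean distance of log2(FPKM + 1) over the 4 libraries, to 9803 other gene sums, and so takes in the level as well as the pattern. Near to Tulp3 was Actr3 at 0.212, to Smo Phb2 at 0.157 and Gna13 at 0.158, and to Arl13b Phf3 at 0.114 and Ptpn21 at 0.191. With 4 libraries and this many genes, such distances are a description of these libraries only.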

How the data were processed

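The 4 libraries, with 40 pmol of siRNA and harvest at day 10, were grouped by their labels. Per the labels, poly(A) RNA was captured and libraries were made with a directional kit. The authors deposited FPKM per transcript. The paper's methods name Cuffdiff for FPKM, whereas HISAT2 2.1.0 and featureCounts 1.5.3, with GRCm38, stand in the submitters' processing notes, and which of them made the values was not settled. The length beside each row is the genomic span of the transcript. With it the values of a library would add up to more fragments than were mapped, and with the annotated transcript length they did not, so it was not used. Depth is unknown, so no counting interval was given. Rows were matched to GENCODE M21 by transcript identifier (12483 of 12515), and 25 symbols turned into dates by a spreadsheet were restored.

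Rows of a symbol were also summed. Fmr-i1 was compared with Ctrl-i with limma 3.58.1 in R 4.3.3, on values to which 1 FPKM was added. Features averaging under 1 FPKM were left out, the variance was fitted with a trend, experiments were blocked and the threshold was 0.05. The script was tested on simulated data. With 2 libraries against 2, an exact permutation test of a single value cannot go below p = 0.333, so none was used. The block rests on the labels, which give 1 library of each group to each experiment. Within an experiment, the deviations of its libraries from their group means correlated at -0.0822. The alternatives added 0.1 or 5 FPKM, dropped the filter or raised it to 5 FPKM. Further ones were scaling by the median, no block, and leaving out each library, the last also without the block. The members and the 15 gene lists were chosen with earlier results of these data known. All rows of the members were named, and of each list its counts, its 2 most abundant genes and any that passed the test. For the 3 most abundant members the 2 nearest genes were taken. Some genes that these rules name are not reported here.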

Additional observations from a re-analysis of the deposited data

How the results depend on the processing

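No member passed the test under any of the 10 alternatives, in 77 fits of member gene sums (1 of them of Gli2, without the filter) with adjusted p between 0.667 and 1. Without the block, 3 of all rows passed, against 0 with it, and no member was among them. The pairing by experiment changed no other call. The median log2 difference of the member rows, 0.27, was 0.15 with a pseudocount of 5 FPKM and 0.08 with median scaling, and lay between 0.08 and 0.46 with 1 library left out. That of the member gene sums, 0.28, was 0.32 with a pseudocount of 0.1 FPKM, 0.18 with 5 FPKM and 0.10 with median scaling, and lay between 0.07 and 0.52 with 1 library left out. Arl13b was at -0.01 with median scaling. With 1 library left out, differences of both signs were found for Arl13b (-0.06 to 0.45), Inpp5e (-0.84 to 1.67), Smo (-0.03 to 0.58 as a sum, -0.09 to 0.62 for the coding row, -0.18 to 0.49 for the intron-retaining row) and Sufu (-0.25 to 0.16), and of 1 sign for Gpr161 (0.37 to 1.27), Gli3 (0.03 to 0.59), Ptch1 (0.08 to 0.49) and Tulp3 (0.07 to 0.47). Inpp5e was at 1.36 with a pseudocount of 0.1 FPKM. The fits with 1 library left out also had no block, so their shifts are not those of the library alone. In them, a group left with 1 library was assumed to vary like the other. The cause of these shifts was not tested. The number of libraries and the unknown depth limit what could be seen, most of all for genes near 1 FPKM.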
